A study of Mus musculus with 2 samples.

Results

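The genes of the miR-29 family, Mir29a, Mir29b-1, Mir29b-2 and Mir29c, were described in gastrocnemius, the large muscle of the calf, by sequencing of short RNA. They were chosen by their symbols in the GENCODE M21 annotation and matched by Ensembl identifier. All 4 were found among the 2202 microRNA genes of the count tables. The libraries came from B6CASTF1/J mice, the F1 hybrids of C57BL/6J, a laboratory strain, with CAST/EiJ, which descends from wild mice. They were male and 2 months old and carried no stated treatment or engineered allele. There is 1 group of 2 libraries, from animals that the labels number separately but list under a shared donor entry, so no conditions could be compared. Replicate 1 held 638779 counts on microRNA genes and replicate 2 held 2272132, and values below are counts per 1000000 of these (CPM).

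MicroRNAs are cut from hairpin transcripts. Either strand of the stem, the 5p or the 3p arm, can be loaded into an Argonaute protein, where bases 2 to 8 of the microRNA, the seed, pair with messenger RNAs and lower their output. The 3p arm is the guide strand of miR-29 in most tissues. The family is best known for repressing collagens, elastin and other matrix transcripts, and in muscle it is linked to myoblast differentiation and to low fibrosis.

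The mature sequences are shown because the family is defined by its seed and because the counts depend on how far the members differ. RefSeq's GRCm38.p6 entries gave 8 arms for the 4 genes, 7 of them distinct, and the 3p arms follow with the seed in capitals, 5′ to 3′.
miR-29a-3p (Mir29a): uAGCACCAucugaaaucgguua
miR-29b-3p (Mir29b-1 and Mir29b-2): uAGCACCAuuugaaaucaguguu
miR-29c-3p (Mir29c): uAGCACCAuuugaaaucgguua

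The 3p arms have 1 seed in common, AGCACCA. Among the 1738 mature entries of the table, 4 carry it at bases 2 to 8, which is 0.230%, and these are the 3p arms of the 4 genes. Counted from 1 at the 5′ end, miR-29c-3p differs from miR-29a-3p by the single substitution C10U. From miR-29c-3p to miR-29b-3p the first 17 bases are identical, and the substitutions are G18A, U21G and A22U. Mir29b-1 and Mir29b-2 give the same 23-base miR-29b-3p, and no letter of that arm tells the genes apart.

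The 5p arms, usually the less abundant strand, differ more and have different seeds, again in capitals.
miR-29a-5p: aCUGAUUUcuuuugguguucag
miR-29b-1-5p: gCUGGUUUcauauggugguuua
miR-29b-2-5p: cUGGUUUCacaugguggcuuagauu
miR-29c-5p: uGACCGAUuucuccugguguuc

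The 5p arms of Mir29b-1 and Mir29b-2 lie 7 edits apart (substitutions, insertions or deletions), as do those of Mir29a and Mir29c and those of the neighbours Mir29a and Mir29b-1. Over the whole hairpins, Mir29a and Mir29c lie 20 edits apart and the miR-29b pair 22. Across the clusters and within them, all other pairs lie 34 to 40 edits apart. By whole hairpin, though not by 5p arm, the closest pairs are thus in different clusters.

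The genes form 2 clusters in mm10. Mir29a (ENSMUSG00000065610.1) spans chr6:31062660-31062747 and Mir29b-1 (ENSMUSG00000065604.2) spans chr6:31063023-31063093, both on the minus strand with 275 bases between them. Mir29b-2 (ENSMUSG00000065412.3) spans chr1:195037040-195037120 and Mir29c (ENSMUSG00000065548.1) spans chr1:195037547-195037634, both on the plus strand with 426 bases between them. Mir29a overlaps no other annotated gene. Mir29b-1 shares 2 bases with an exon of the long noncoding RNA Gm27019 on its own strand. Both genes on chromosome 1 lie in an exon of the noncoding host gene A330023F24Rik, and opposite them, on the minus strand, runs the untranslated region at the 3′ end of Cd46, which encodes a complement regulator. None of the 4 had a count on the opposite strand in either library, and their counts were the same when strand was ignored.

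Reads that match several places were totalled apart in the deposited tables and assigned to no gene, at 75.2% of all reads in replicate 1 and 74.4% in replicate 2. How much of each hairpin could be told from every other annotated microRNA gene was therefore measured. Of the 22-base windows in each hairpin, 67 of 67 were found nowhere else for Mir29a and 66 of 67 for Mir29c. The same held for 45 of 50 windows of Mir29b-1 and 56 of 60 of Mir29b-2. The windows that are not unique sit at the 3p arm. The window that starts at the first base of the 3p arm was found in 1 gene for Mir29a and Mir29c, and in both miR-29b genes for Mir29b-1 and Mir29b-2. The 1 shared window of Mir29c starts at base 49 of the hairpin, ahead of the arm that begins at base 54, and belongs to a run of 22 bases in common with Mir29b-1. The mature miR-29c-3p itself was in no other microRNA gene, although it is 1 edit from Mir29a. Copies elsewhere in the genome were not analysed here.

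**Figure D1:**
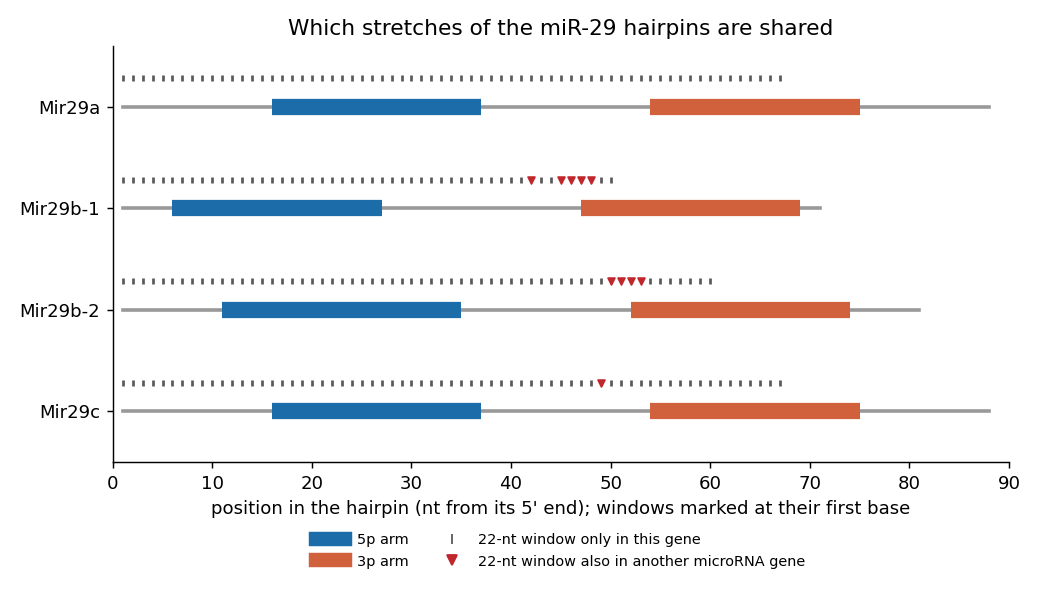
Each horizontal line is a miR-29 hairpin, with position in nt from its 5′ end on the x axis, the 5p arm in blue and the 3p arm in orange. Marks above a line stand at the first base of each 22-nt window: grey bars are windows found in that gene alone, and red triangles are windows also found in another microRNA gene, which number 5 in Mir29b-1, 4 in Mir29b-2, 1 in Mir29c and 0 in Mir29a.

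Most assigned miR-29 counts belonged to Mir29a. Mir29a had 4684 counts in replicate 1 and 10466 in replicate 2, or 7333 and 4606 CPM (mean 5969 ± 1928, SD, n = 2). Mir29c had 1236 and 1792 counts, or 1935 and 789 CPM (mean 1362 ± 811). In both libraries Mir29a was above Mir29c, and the ranges of the 2 genes did not overlap. Mir29b-1 had 11 and 42 counts, or 17.2 and 18.5 CPM (mean 17.9 ± 0.894). Mir29b-2 had 13 and 23 counts, or 20.4 and 10.1 CPM (mean 15.2 ± 7.23). The miR-29b genes changed places between the libraries and could not be ordered.

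Counting error set the precision of the low genes. The exact 95% Clopper-Pearson interval of Mir29b-1 ran from 8.60 to 30.8 CPM in replicate 1 and from 13.3 to 25.0 CPM in replicate 2. That of Mir29b-2 ran from 10.8 to 34.8 CPM and from 6.42 to 15.2 CPM. For Mir29a the intervals, 7125 to 7545 CPM and 4519 to 4695 CPM, were narrow against the distance between the libraries. They were also narrow for Mir29c, at 1829 to 2046 CPM and 753 to 826 CPM. Reads amplified by PCR and counted without molecular identifiers are not independent molecules, so these intervals cover counting error only.

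**Figure D2:**
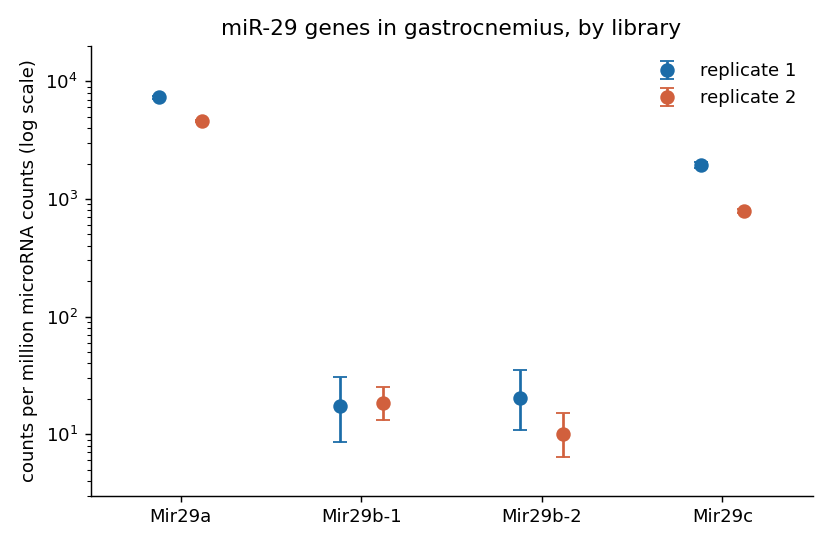
CPM of each miR-29 gene on a log axis, with replicate 1 in blue and replicate 2 in orange; points are the 2 libraries and bars are exact 95% intervals of counting error. Mir29a and Mir29c stand between 789 and 7333 CPM, and both miR-29b genes between 10.1 and 20.4 CPM.

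By mean, the order of the levels was the same per annotated base, a scale that divides each level by the length of the hairpin. On this scale too, the miR-29b genes changed places between the libraries. The hairpins are 71 to 88 bases long, and Mir29a and Mir29c have the same length. Mir29b-1, the higher of the miR-29b genes by mean, is also the shorter. This scale could therefore not change the order of the means and is no check of it. The mean levels were 67.8 CPM per base for Mir29a, 15.5 for Mir29c, 0.251 for Mir29b-1 and 0.188 for Mir29b-2. Among all 2202 genes Mir29a ranked 21 by CPM in replicate 1 and 31 in replicate 2. Mir29c ranked 43 and 68. Mir29b-1 ranked 218 and 225, and Mir29b-2 ranked 208 and 257. The genes next to Mir29a in mean CPM were Mir191 (6113 ± 1020) and Mir151 (5821 ± 326), and those next to Mir29c were Mir16-1 (1386 ± 104) and Mir499 (1301 ± 731), which lies in a slow myosin gene. Next to Mir29b-1 were Mir378b (18.1 ± 1.21) and Mir32 (17.6 ± 4.98), and next to Mir29b-2 were Mir137 (15.7 ± 8.92) and Mir194-2 (15.0 ± 1.24). The ranges of the 2 libraries overlapped for each of the 4 genes and both its neighbours, so these places in the order are not fixed.

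Of the counts assigned to the family, Mir29a gave 78.8% in replicate 1 (exact 95% interval 77.7 to 79.8%) and 84.9% in replicate 2 (84.3 to 85.6%). Mir29c gave 20.8% (19.8 to 21.8%) and 14.5% (13.9 to 15.2%). Per 100 counts of Mir29a there were 26.4 counts of Mir29c in replicate 1 (24.8 to 28.1) and 17.1 in replicate 2 (16.3 to 18.0). The makeup of the assigned counts thus differed between the libraries by more than counting error. Taken by cluster, the chromosome 6 pair gave 82.1% ± 4.44 of these counts and the chromosome 1 pair 17.9% ± 4.44 (SD, n = 2). Complete miR-29b-3p reads match a gene in each cluster and cannot enter these shares if every such read was set apart. The split of the whole family by cluster is therefore not known.

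Each cluster held 1 gene with nearly all of its counts. Mir29b-1 had 0.235 counts per 100 of its neighbour Mir29a in replicate 1 (0.117 to 0.421) and 0.401 in replicate 2 (0.289 to 0.543). Mir29b-2 had 1.05 per 100 of Mir29c (0.558 to 1.81) and 1.28 (0.811 to 1.93). In both clusters the intervals of the libraries overlapped. Reads of the complete miR-29b-3p match both miR-29b genes and cannot enter these counts if every such read was set apart, so the values are no measure of miR-29b. The share of such reads among the multi-mapping total was not tested.

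The same split by shared arms was measured in families of like build. The miR-101, miR-26 and miR-30 families also hold genes with near-identical mature sequences, and RefSeq arms were matched for 2 miR-101, 3 miR-26 and 4 miR-30 genes (Mir30b and Mir30d were not matched). With the miR-29 genes this made 13. The 6 with 1 arm also found in another gene (Mir29b-1, Mir29b-2, Mir26a-1, Mir26a-2, Mir30c-1 and Mir30c-2) lay between 15.2 and 236 mean CPM. The 7 with no such arm lay between 1266 and 42807 mean CPM, with Mir29a at their median of 5969. Among these 13 genes the ranges did not overlap, and both miR-29b genes were the lowest. The unmatched Mir30b and Mir30d had 357 and 13768 mean CPM. Mir30f, with no shared arm, and Mir101c, with a shared arm, were not on the lists and had no count. The gap thus holds for the 13 genes only. Over all 1018 genes with matched arms the ranges overlapped: 49 of 908 genes with no shared arm reached 1000 mean CPM (5.40%), as did 4 of 61 with some arms shared (6.56%) and 0 of 49 with all arms shared.

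**Figure D3:**
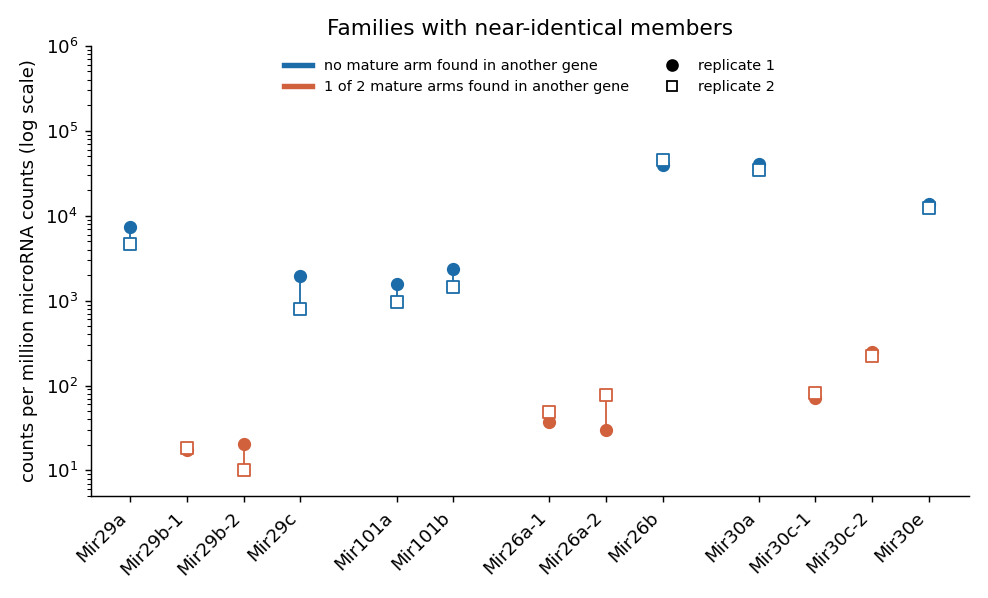
CPM on a log axis for 13 genes of the miR-29, miR-101, miR-26 and miR-30 families, with replicate 1 as filled circles and replicate 2 as open squares joined by a line. Genes with no mature arm in another microRNA gene are blue and have means of 1266 or more, and genes with 1 of 2 arms in another gene are orange and have means of 236 or less.

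Mir29a and Mir29c were lower in replicate 2 than in replicate 1, and the miR-29b genes did not pass the test. Mir29c was at 0.408-fold in replicate 2 (95% interval of counting error 0.379 to 0.439) and Mir29a at 0.628-fold (0.607 to 0.650). The summed counts of the 4 were at 0.583-fold (0.565 to 0.601), from 9305 to 5424 CPM. The intervals of Mir29a and Mir29c did not overlap, and Mir29c had the larger difference. Mir29b-2 was at 0.497-fold (0.242 to 1.07) and Mir29b-1 at 1.07-fold (0.543 to 2.31). The test was an exact two-sided binomial test with Benjamini-Hochberg adjustment over the 311 genes with 10 or more counts. Its adjusted p was 1.9e-118 for Mir29c, 5.09e-143 for Mir29a, 0.101 for Mir29b-2 and 1 for Mir29b-1.

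These calls compare 2 libraries and not conditions or mice, since the binomial test knows counting error alone. It called 40.5% of the tested genes, 17.4% as lower in replicate 2 and 23.2% as higher. In either direction, 2 calls among 4 members are close to the background in number. Both calls were lower, the direction of the 17.4%, but 4 members are too few to set against that share. The median log2 ratio was -0.85 over the 4 miR-29 genes and 0.04 over all tested genes. The first lies between Mir29a at -0.67 and Mir29b-2 at -1.03, which did not pass, and Mir29b-1 was at 0.06. It is a description and no test of the family. With TMM scaling the balance of calls turned, from 72 higher and 54 lower to 55 higher and 69 lower. It also turned with DESeq2 size factors (58 higher, 63 lower) but not with unstranded counts (68 higher, 46 lower). Mir29a and Mir29c were called lower with TMM, with DESeq2 size factors and with unstranded counts. When the spread between the libraries was itself taken as noise, at a coefficient of variation of 27.6%, edgeR's exact test gave Mir29c an unadjusted p of 0.0255 and an adjusted p of 0.529, and Mir29a 0.24 and 1. That test called 0.643% of the genes.

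**Figure D4:**
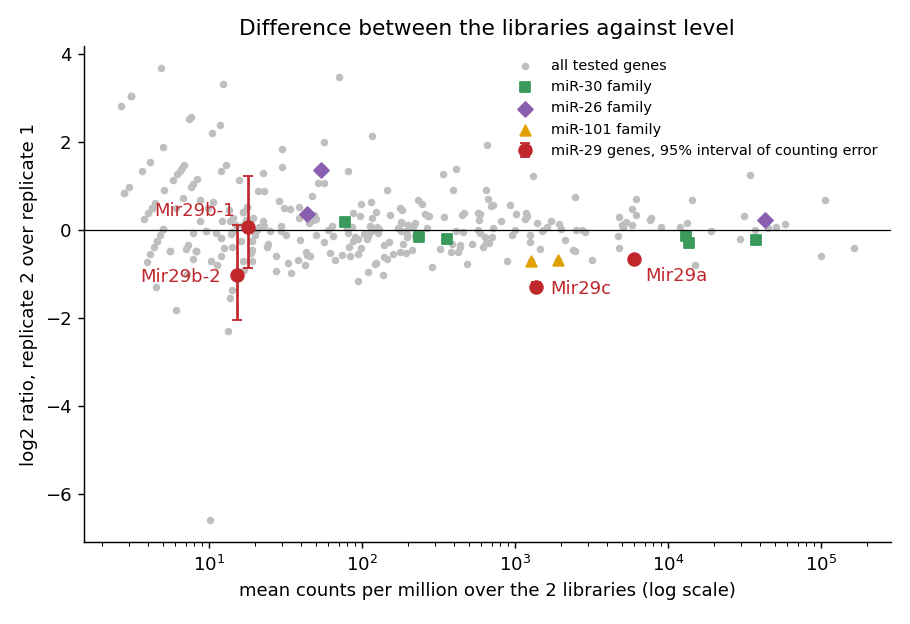
The log2 ratio of replicate 2 over replicate 1 (y axis) against mean CPM on a log axis for the 311 tested genes in grey, with the miR-29 genes in red (bars are 95% intervals of counting error) and the miR-30, miR-26 and miR-101 families in colour. Mir29c, at -1.29, is the lowest of the 59 genes with a mean of 1000 CPM or more, and Mir29a lies at -0.67.

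Placed among abundant genes, Mir29c had the lowest ratio of the 146 genes with a mean of 100 CPM or more, whose log2 ratios ran from -1.29 to 2.13 around a median of -0.0022. Mir29a had 13 of these genes below it. The genes nearest to Mir29a in log2 ratio were Mir329 (-0.67), Mir101b (-0.69) and Mir744 (-0.69). The nearest to Mir29c were farther off, at -1.04 for Mir1843b, -0.95 for the annotated Snord43 and -0.86 for Mir1843a. With 2 libraries, likeness in this measure is likeness of a single ratio.

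The comparison families had ratios on either side of 1. Both miR-101 genes were lower in replicate 2, Mir101a at 0.614-fold and Mir101b at 0.620-fold, close to Mir29a. The miR-26 family summed to 1.16-fold, with Mir26b at 1.16-fold, 2 of 3 genes higher and 1 not passing. The miR-30 family summed to 0.858-fold, with 3 of 6 genes lower and 3 not passing. Differences between families were not tested, since the members of a family are not replicates.

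Other microRNAs linked to fibrosis were set beside the family. Mir21a, which is raised in many fibrotic tissues, had 19072 CPM in replicate 1 and 10899 in replicate 2, at 0.571-fold. Mir214, from the Dnm3 antisense transcript, had 575 and 853 CPM and was higher in replicate 2, at 1.48-fold. Of the 5 genes linked to more matrix, 4 were tested, with 2 lower, 1 higher and 1 not passing, and Mir199a-1 had no count. The matched arms of Mir199a-1, Mir199a-2 and Mir199b are all found in another gene. Reads of those complete arms cannot enter the counts if every such read was set apart. Of the 9 genes linked to less matrix other than miR-29, 3 were lower and 6 did not pass. The 3 were Mir30a (37470 ± 4174 CPM, 0.854-fold), Mir30d (13768 ± 1977, 0.816-fold) and Mir30e (13059 ± 846, 0.912-fold). Mir30b, at 357 ± 36.9 CPM and 0.864-fold, and Mir30c-2, at 236 ± 17.6 CPM and 0.900-fold, did not pass. Among the 6, Mir30c-1 and Mir30c-2 have 1 arm in common, and Mir133a is listed as paired genes. Reads that match both genes of a pair would be set apart. The medians of the log2 ratios were -0.12 and -0.23 for these lists, between those of miR-29 and of all tested genes. The first is the middle of 4 split ratios: Mir199b -0.97, Mir21a -0.81, Mir214 0.57 and Mir199a-2 1.48. It therefore shows no common direction of that list.

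Markers of the cell types of muscle tissue moved between the libraries as well. The fibroblast markers, which are the 5 genes linked to more matrix, summed to 19698 CPM in replicate 1 and 11795 in replicate 2. That sum followed Mir21a, while Mir214 was higher in replicate 2, so the list had no common direction. Mir199b was lower at 0.514-fold and Mir199a-2, at 3.09-fold, did not pass. The matched arms of the miR-199 genes are all found in another gene, so their counts are no measure of miR-199. The smooth muscle markers Mir143 and Mir145a summed to 123068 and 81451 CPM, both lower in replicate 2. The endothelial pair, nearly all Mir126a, summed to 81286 and 129798 CPM. The 9 skeletal muscle markers summed to 22884 and 52158 CPM, with 4 of 9 higher and 5 not passing. That sum followed Mir206, at 20325 and 48078 CPM, while the median log2 ratio of the 9 was 0.04. The 5 were Mir1a-1 (0.781-fold), Mir1a-2 (1.03-fold), Mir133a-1 (0.787-fold), Mir133a-2 (0.515-fold) and Mir133b (0.542-fold), at 7.12 to 265 mean CPM. The list thus held ratios on either side of 1. Mir1a and Mir133a are each listed as paired genes, and whether the pairs share arms was not tested. Reads that match both genes of a pair would be set apart, so the sum may leave out their reads. Erythroid markers summed to 6176 and 4688 CPM, both lower. Leukocyte markers summed to 2542 and 2889 CPM, with Mir150 (1.18-fold) and Mir155 (1.23-fold) higher, Mir142 (0.732-fold) lower and Mir223 (0.827-fold) not passing. Of the epithelial markers, which summed to 28.2 and 19.8 CPM, Mir200c was lower and Mir205 did not pass. Of the neural markers 5 of 6 had no count and the other had 1 in all. Mir124a and Mir9 are each listed as several genes, and whether those genes share arms was not tested. Reads that match several of them would be set apart, so the low counts are no measure of neural RNA. Mir122 of liver had 15.7 and 29.9 CPM. The part of these shifts in the miR-29 ratios was not tested, and in bulk tissue fewer cells of a type cannot be told apart from less RNA per cell.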

How the data were processed

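MicroRNA sequencing of inserts under 30 nt gave 1 table per library. Each holds raw read counts by gene that the authors made on mm10 with GENCODE M21, per the texts beside the tables. The sources used here do not name an aligner or counter. The column of same-strand counts was used, divided by its total over gene rows (CPM). Unmapped reads (5.97% and 6.93%), multi-mapping reads and reads with no feature (1.62% and 2.48%) stayed out. Genes whose counts summed to at least 10 were compared with an exact binomial test (Benjamini-Hochberg, 0.05), and log2 ratios carry a prior count of 0.5 per library. The test was checked on simulated counts that varied by counting error alone. That check does not cover the wider spread between these libraries. The p-values measure only the difference between these libraries. All 4 symbols matched RefSeq's sequences (GRCm38.p6, the assembly of mm10). Windows and arms were searched in the GENCODE transcripts of all 2202 genes, leaving out genes at the same place. Named are the members, their neighbours in mean CPM, the 3 nearest log2 ratios to Mir29a and Mir29c among genes of 100 CPM or more, and list members of 100 CPM or more. Members and lists were chosen with earlier results of these data known. Alternatives were other scalings (edgeR 4.0.16, DESeq2 1.42.0), denominators, columns, filters, prior counts and tests, and each library left out. Python 3.11.15 and scipy 1.17.1 were used.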

Additional observations from a re-analysis of the deposited data

How the results depend on the processing

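The log2 ratios of Mir29a, Mir29c and Mir29b-2 kept their direction and their side of the threshold with TMM scaling, DESeq2 size factors, unstranded counts and no filter. They also kept their direction with a prior count of 2, which does not enter the test and could not change the calls. Unstranded counts left the members' own counts unchanged and altered the totals. Apart from edgeR's test, the number of genes called ranged from 114 to 124 against 126. Family shares could not change with unstranded counts, since the members' counts are the same there. With unstranded counts, which lower the total, the mean CPM was 8526 for Mir29a, 25.5 for Mir29b-1 and 10519 for the 4 genes together. Per 1000000 of all reads it was 1003 for Mir29a, 2.98 for Mir29b-1, 2.57 for Mir29b-2, 230.3 for Mir29c and 1239 together. Mir29b-1, whose SD was small, moved to 21.3 without the most abundant gene in the total and to 21.2 per annotated base. The log2 ratio of Mir29b-1 turned to -0.028 with TMM scaling and to -0.072 with a prior count of 2, neither past the threshold. With the exact test of edgeR at a common dispersion, the log2 ratios of -0.67 for Mir29a and -1.29 for Mir29c no longer passed, and 2 genes were called, 1 higher and 1 lower, in place of 126 (20 had an unadjusted p under 0.05). Leaving out each library gave 4606 to 7333 CPM for Mir29a and 789 to 1935 CPM for Mir29c; with 2 libraries this restates their values and is no check of stability. The precision of both miR-29b genes was limited by their 11 to 42 counts per library. No paired analysis was possible because there is 1 group.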
